A study of Mus musculus with 3 samples.

Results

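The DNA replication machinery was followed here as 46 named genes that cover origin recognition, helicase loading and activation, the replicative polymerases, the sliding clamp, single-strand DNA binding, lagging-strand maturation and deoxynucleotide supply. They were chosen by name for their known roles, not by a threshold on the measurements, and all 46 were among the 16742 genes listed in at least 1 of 3 RNA-seq libraries of mouse bone marrow. The control library came from lin- cells, which are what remains after cells with mature lineage markers are removed, taken from wild type mice on a C57BL/6 background. For TR1 and TR9 they came from GFP+ bone marrow cells of C57BL/6 leukemia mice that express TBLR1-RARa, an acute promyelocytic leukemia fusion. All mice were listed as 6 to 8 weeks of age, and each library pooled 3 mice, so there was 1 library per condition and no replicate.

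Several features limit these groups as a model. The fusion was delivered to lin- cells by a retrovirus whose transcript also encodes GFP, and the leukemic cells were then passed through serial transplantation. TR1 and TR9 each descend from a single primary leukemic mouse, and the sequenced cells came from recipients of the third generation. The control mice carried neither the vector nor a transplant, and their cells were isolated by lineage depletion while the TR cells were sorted for GFP, so isolation, transplantation and fusion cannot be told apart. In bulk RNA, fewer dividing cells and less RNA per dividing cell cannot be told apart either.

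Before S phase, the origin recognition complex together with Cdc6 and Cdt1 loads the MCM2-7 helicase onto DNA. The Cdc7-Dbf4 kinase then helps to convert it into the active helicase, in which MCM2-7 is joined by Cdc45 and the GINS proteins. Polymerase alpha-primase lays down primers, polymerases delta and epsilon extend them with the PCNA clamp, and Fen1 and Lig1 join the fragments of the lagging strand. Many of these genes are transcribed under E2F factors as cells enter S phase, and in bone marrow their RNA is most abundant in dividing progenitors.

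The E2F letters in the promoters are shown first because they are a feature that many of these genes share and that no expression value entered. Promoters were taken from RefSeq for GRCm38.p6 as the 300 bases from 250 before to 50 after the start of transcription, and 39 of the 46 genes had one in the table. The deposited files give no coordinates and name another build, mm9. The 8 letters TTTGGCGC, TTTCGCGC, TTTCCCGC and TTTGCCGC were searched on both strands, and some matches overlap each other. They were found in the promoters of 15 of the 39 genes (38.5%), against 704 of 27025 genes in the whole table (2.61%) and 545 of the 13015 genes listed in the libraries that have a promoter there (4.19%). The 15 genes were Mcm3, Mcm5, Mcm6, Mcm7, Orc1, Orc3, Gins3, Cdc6, Cdt1, Rfc3, Pola1, Pold1, Pold3, Pole2 and Lig1. A match is only a match of letters and was not tested as a binding site. The stretches below belong to 2 subunits of the helicase, to a loading factor and to the catalytic subunit of polymerase alpha, and are shown as examples of a match upstream of the start, which other genes such as Mcm7 and Orc1 also have. They run 5′ to 3′ on the strand of the gene, and capitals mark the E2F letters or a pair of overlapping matches.
Mcm6, chr1:128359768-128359855, minus strand: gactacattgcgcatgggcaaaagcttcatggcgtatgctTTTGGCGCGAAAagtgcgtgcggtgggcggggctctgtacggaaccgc
Mcm5, chr8:75109316-75109403, plus strand: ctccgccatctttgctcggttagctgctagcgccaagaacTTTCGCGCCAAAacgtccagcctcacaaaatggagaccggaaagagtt
Cdc6, chr11:98907973-98908060, plus strand: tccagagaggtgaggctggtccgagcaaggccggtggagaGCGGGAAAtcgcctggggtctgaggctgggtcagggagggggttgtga
Pola1, chrX:93632246-93632333, minus strand: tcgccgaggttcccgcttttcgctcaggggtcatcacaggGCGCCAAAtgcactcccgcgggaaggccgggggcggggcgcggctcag

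The Mcm6 and Mcm5 matches each read as E2F letters on both strands, since a palindromic core is shared by the overlapping pair. In Cdc6 and Pola1 the capitals are the reverse complement of TTTCCCGC and of TTTGGCGC. Other letters set the genes apart less. CCAAT stood in 23 of 39 promoters (59.0%) against 41.1% of all genes and 42.4% of those listed in the libraries. TTTGAA, the letters of the cell cycle homology region, stood in 7 of 39 (17.9%), between 20.2% of all genes and 15.2% of those listed.

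Expected counts can be fractions where reads match several genes. They summed to between 5129662 and 5571409 per library. Every one of the 46 genes was listed in all 3 libraries, with counts from 67 to 4058. Counts were whole for 42 of them and divided for Mcm5, Orc4, Pola2 and Tyms, whose values are therefore less certain. Levels are given as FPKM, a number of fragments scaled for transcript length and for the library total. Where 3 counts or FPKM of a gene follow each other, they are those of control, TR1 and TR9 in that order, and a pair of log2 ratios is that of TR1 and of TR9 to control. A gene was called lower or higher between a pair of libraries when a conditional exact Poisson test gave a false discovery rate of at most 0.001 over all genes and the log2 ratio of FPKM was 1 or more in size. Intervals in parentheses are 95% exact intervals that cover counting error only. Those of log2 ratios come from counts and library totals, without transcript length. Where the estimated length differed between libraries, as for Cdc45 and Orc4, they are shifted from the FPKM ratio. The Poisson test compares libraries, not conditions.

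Replication genes took a smaller share of the RNA in both leukemia lines. Together they held 0.891% of the expected counts in control (95% exact interval 0.883 to 0.899), 0.477% in TR1 (0.471 to 0.483) and 0.473% in TR9 (0.467 to 0.479). Their summed FPKM was 54.0% of that of control in TR1 and 53.9% in TR9, so the TR9 sum was 99.8% of the TR1 sum. The median FPKM of a replication gene was 48.7 in control against 29.3 in TR1 and 28.7 in TR9.

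In TR1, 20 of the 46 genes were called lower than control, 0 were called higher and 26 were not called. Over all 16282 genes tested in that pair of libraries, 13.0% were called lower and 8.09% higher. The median log2 ratio was −0.91, or 53.2% of control, beside a median of −0.29 over all genes. Replication genes lay closer together than genes at large, with quartiles of −1.11 and −0.68 against −1.05 and 0.47. In 44 of the 46 the ratio was below 0, the interval lay wholly below 0 in 43, and 41 lay below the median of all genes. The extremes were Tk1 at −2.10 and Pole2 at 0.62.

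In TR9, again 20 genes were called lower and 0 higher, where 10.8% of 16303 tested genes were called lower and 9.37% higher. The median was −0.91, or 53.3% of control, beside −0.12 over all genes, and the quartiles were −1.21 and −0.62 against −0.90 and 0.65. The ratio was below 0 in 44 genes, with the interval wholly below 0 in 41, and 44 lay below the median of all genes. The extremes were Cdc6 at −1.90 and Tyms at 0.31. Both comparisons use the same control library.

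**Figure D1:**
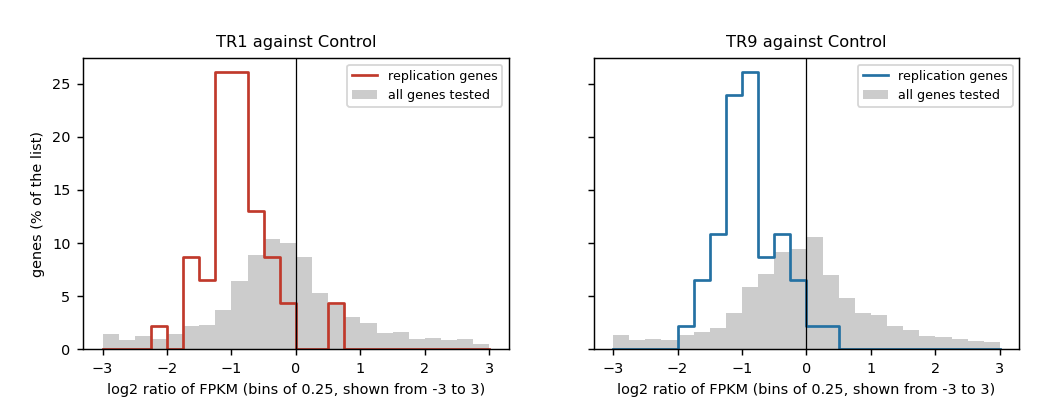
Distribution of the log2 FPKM ratio of TR1 (left) and TR9 (right) to control, as percent of genes per bin, with gray bars for all genes tested and a coloured outline for the 46 replication genes. The replication genes gather around their median of −0.91 in both lines, to the left of the medians of all genes at −0.29 and −0.12.

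The number called depends on how libraries are scaled. Under TMM scaling, which sets the bulk of genes to equal levels, 8 members were called lower in TR1 and 14 in TR9, with 0 higher in either. The 8 were Orc1, Orc2, Orc5, Cdc6, Pola1, Fen1, Rrm1 and Tk1, and all of them but Tk1 were among the 14. The members' medians were then −0.66 and −0.80. Over all genes, the split of lower to higher calls moved from 2120 and 1318 to 1591 and 1694 in TR1, and from 1766 and 1527 to 1503 and 1717 in TR9. When edgeR's exact test assumed a variation between libraries in place of counting error alone, 2 members were called lower in TR1 (Pola1 and Tk1). In TR9, 2 were called lower (Orc2 and Cdc6). At the same false discovery rate of 0.001, that test found 1649 of 16282 genes in TR1 and 1547 of 16303 in TR9, in either direction. The members' share was thus smaller than that of all genes, the reverse of the Poisson calls. At an unadjusted p under 0.05 in that test, it was larger, with 25 members against 4600 genes in TR1 and 28 against 4413 in TR9.

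**Figure D2:**
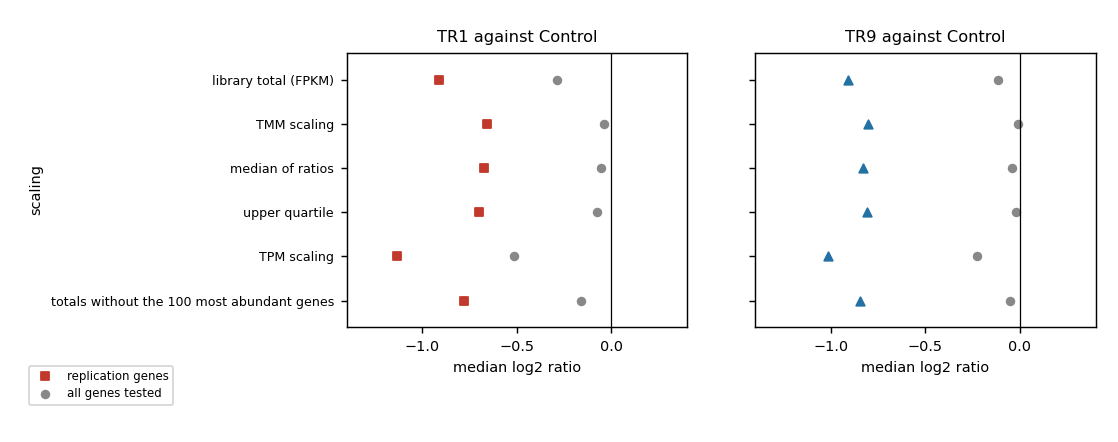
Median log2 ratio to control of the 46 replication genes (red squares for TR1, blue triangles for TR9) and of all genes tested (gray circles) under each of 6 scalings of the libraries. The replication genes lie left of all genes under each, from −1.14 to −0.66 in TR1 and from −1.02 to −0.80 in TR9.

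Lower calls coincided in most cases. Called lower in both lines were 17 of the 46 genes (37.0%), against 1404 of the 16742 listed genes (8.39%). Rfc2, Rfc3 and Tk1 were called in TR1 alone and Mcm2, Gins2 and Rfc4 in TR9 alone, and 23 were called in neither. Apart from Tk1, the genes called in a single line had log2 ratios from −1.38 to −0.63 in both, so that most lay near the threshold.

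**Figure D3:**
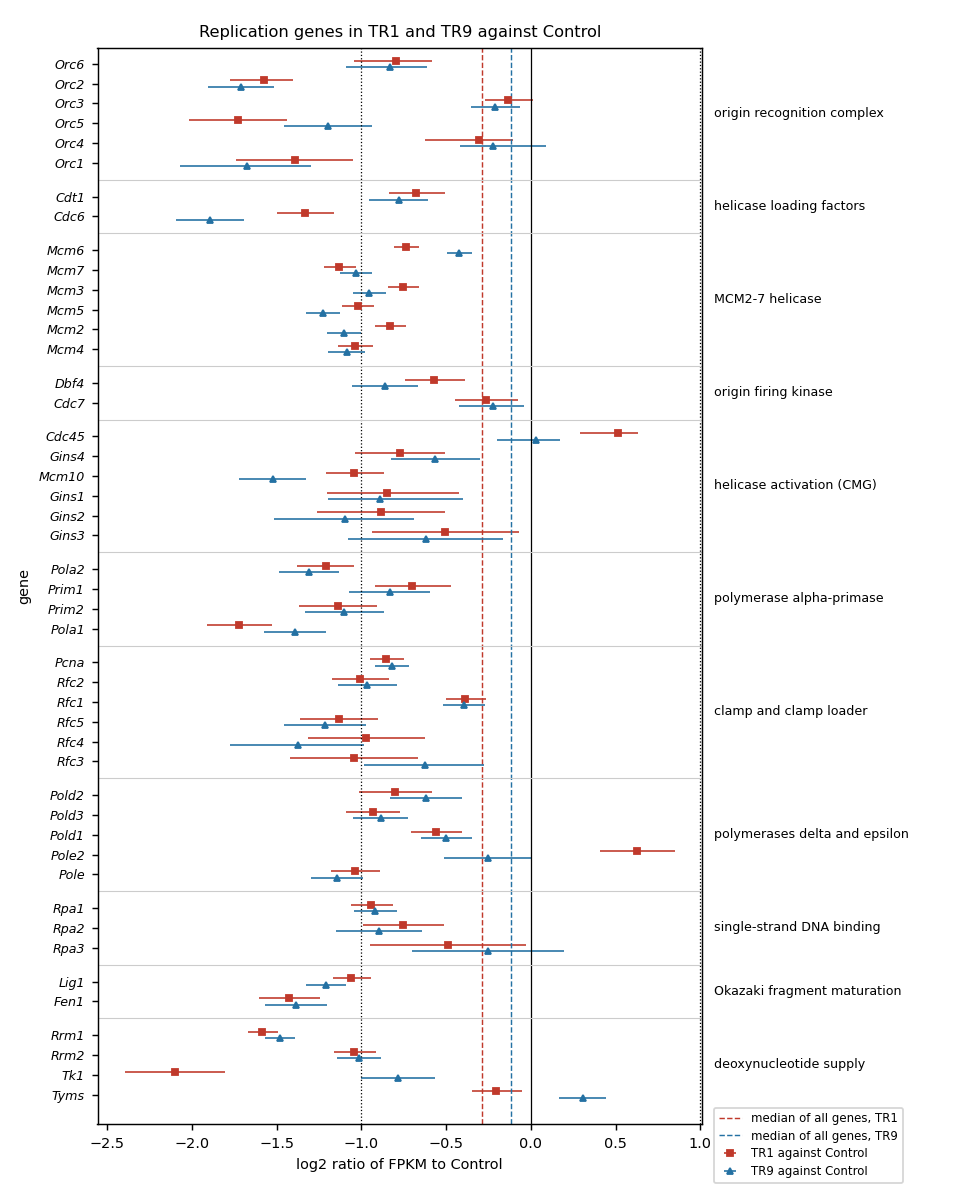
Log2 FPKM ratio to control of each of the 46 replication genes by role, with red squares for TR1, blue triangles for TR9, bars for 95% exact intervals of counting error, dotted lines at the threshold of 1 in size and dashed lines at the medians of all genes. Most points lie left of both dashed lines, while Pole2 and Cdc45 in TR1 and Tyms and Cdc45 in TR9 lie right of 0.

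The subunits of the origin recognition complex differed widely in their ratios to control. Orc1, Orc2 and Orc5 were called lower in both lines, while Orc3, Orc4 and Orc6 were not called, and the summed FPKM of the 6 genes was 50.3% of control in TR1 and 51.1% in TR9. Orc2, a core subunit (NCBI Gene 18393), had 969, 327 and 277 counts. Its FPKM was 49.3, 16.5 and 15.1. Both leukemia libraries thus held about equally little Orc2 RNA, with log2 ratios of −1.58 (−1.77 to −1.41) and −1.71 (−1.91 to −1.51).

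Orc5, an ATP-binding subunit, had 426, 131 and 174 counts, with log2 ratios of −1.73 (−2.02 to −1.44) and −1.20 (−1.46 to −0.94). Orc1, another ATPase subunit, had 253, 98 and 74 counts, with log2 ratios of −1.39 (−1.74 to −1.05) and −1.68 (−2.07 to −1.30). Orc1 had the lowest FPKM of all 46 genes in both leukemia libraries, at 5.77 in TR1 and 4.74 in TR9. Orc6, the most abundant subunit, had 432, 250 and 224 counts with log2 ratios of −0.80 and −0.83.

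Orc3 and Orc4 are named here because of their values. Orc3 had 856, 795 and 693 counts, at −0.13 (−0.27 to 0.01) in TR1 and −0.21 (−0.35 to −0.06) in TR9. The sign of Orc3 in TR1 is not fixed, since it turned to between 0.08 and 0.12 under 3 other scalings. Orc4 had ratios of −0.30 (−0.62 to −0.11) and −0.22 (−0.42 to 0.09). The FPKM of Orc3 over that of Orc2 was 0.496 in control against 1.35 in TR1 and 1.41 in TR9. Within the complex, Orc6 was the most abundant subunit in every library. The least abundant was Orc4 in control and Orc1 in both leukemia libraries. Orc6 exceeded the least abundant subunit 3.66-fold in control, 4.94-fold in TR1 and 5.88-fold in TR9.

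The loading factors differed from each other. Cdc6 (NCBI Gene 23834), the ATPase that recruits the helicase to the origin complex, had 997, 403 and 251 counts. It was called lower in both lines, with log2 ratios of −1.33 (−1.499 to −1.16) and −1.90 (−2.10 to −1.69), and had the lowest TR9 ratio of the 46 genes. Cdt1, its partner in loading and the target of degradation in S phase, had 775, 493 and 422 counts and was not called, at −0.68 (−0.84 to −0.51) and −0.78 (−0.95 to −0.61). The FPKM of Cdt1 over that of Cdc6 was 1.58 in control against 2.49 in TR1 and 3.43 in TR9.

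The MCM2-7 helicase, whose 6 subunits form 1 ring, was at 53.4% of control in TR1 and 53.8% in TR9 by summed FPKM. Mcm4, Mcm5 and Mcm7 were called lower in both lines, Mcm2 in TR9 alone, and Mcm3 and Mcm6 in neither. Mcm7 had 2854, 1325 and 1304 counts, with log2 ratios of −1.13 (−1.22 to −1.03) and −1.03 (−1.13 to −0.94). Mcm5 had 2795, 1400 and 1117 counts, with log2 ratios of −1.02 (−1.11 to −0.93) and −1.23 (−1.33 to −1.12). Mcm4 had 2262, 1120 and 996 counts, with log2 ratios of −1.04 (−1.14 to −0.93) and −1.09 (−1.19 to −0.98). These ratios lie near −1, and none of the 3 was called in TR1 under TMM scaling.

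Mcm2 had 2578, 1473 and 1121 counts, with log2 ratios of −0.83 (−0.92 to −0.74) and −1.11 (−1.21 to −1.002). Mcm3 stood at −0.75 (−0.84 to −0.66) and −0.95 (−1.05 to −0.86). Mcm6 was the most abundant subunit in every library and kept more of its control level in TR9 than any other. It had 3712, 2265 and 2594 counts, an FPKM of 232, 139 and 173, and log2 ratios of −0.74 (−0.81 to −0.66) and −0.42 (−0.49 to −0.35). The FPKM of Mcm6 over that of Mcm4 was 2.04 in control against 2.51 in TR1 and 3.23 in TR9. Although the promoters of Mcm5 and Mcm6 printed above both carry overlapping E2F letters, the 2 genes lay at opposite ends of the subunits in TR9.

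Mcm10, a factor that helps the loaded helicase to become active, was called lower in both lines. It had 866, 428 and 282 counts, with log2 ratios of −1.04 (−1.21 to −0.87) and −1.52 (−1.72 to −1.33). Its partner Cdc45 (NCBI Gene 12544), a limiting part of the active helicase, was not lower. Cdc45 had 496, 693 and 459 counts. Its log2 ratios were 0.52 (0.29 to 0.63) in TR1 and 0.03 (−0.20 to 0.17) in TR9. In TR9 that sign turns to −0.08 under TPM scaling. The FPKM of Cdc45 over that of Mcm10 was 0.936 in control against 2.76 in TR1 and 2.75 in TR9, and Cdc45 moved from rank 29 of the 46 genes by FPKM in control to rank 9 in TR1 and 14 in TR9.

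The GINS subunits, which complete the active helicase, were among the scarcer members, with 67 to 319 counts per library. Gins2 was called lower in TR9, with 167, 92 and 73 counts and log2 ratios of −0.89 (−1.26 to −0.51) and −1.10 (−1.51 to −0.69). Gins1, Gins3 and Gins4 were not called and lay between −0.89 and −0.50 in both lines. The firing kinase was not called either. Its regulatory subunit Dbf4 had 646, 443 and 333 counts, with log2 ratios of −0.57 (−0.74 to −0.39) and −0.86 (−1.05 to −0.67), while the catalytic subunit Cdc7 stood at −0.26 (−0.45 to −0.07) and −0.23 (−0.42 to −0.04).

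**Figure D4:**
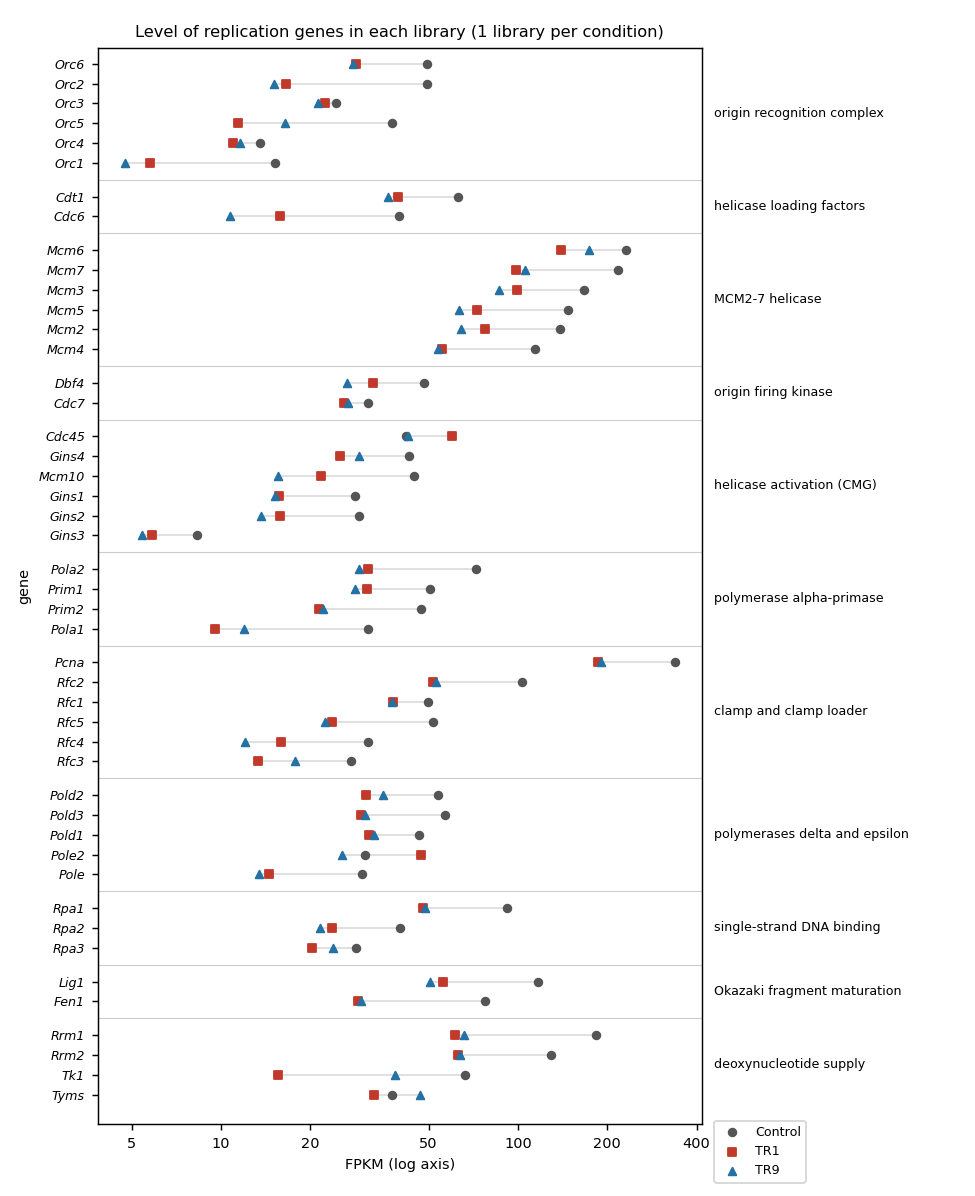
FPKM of each of the 46 replication genes in control (gray circles), TR1 (red squares) and TR9 (blue triangles) on a log axis, grouped by role, with 1 library per condition. Pcna and Mcm6 have the highest levels in every library, and for most genes the control point lies right of both leukemia points.

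Polymerase alpha-primase, which makes the primers, was among the most reduced groups, at 46.3% of control in TR1 and 45.4% in TR9. Pola1 (NCBI Gene 18968), the catalytic subunit, had 930, 287 and 331 counts. It was called lower in both lines, at −1.72 (−1.91 to −1.53) and −1.39 (−1.58 to −1.21). Pola2, the regulatory subunit, had 954, 419 and 360 counts and was called lower in both, at −1.21 and −1.31. Prim2, the large primase subunit, had 500, 231 and 218 counts and was also called lower in both, at −1.14 and −1.10. The primase catalytic subunit Prim1 was not called, at −0.70 and −0.83.

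The elongating polymerases kept a larger part of their control level by summed FPKM, 70.7% in TR1 and 63.3% in TR9. The TR1 sum leans on Pole2, which stood at 154% of control there, while the other subunits ranged from 48.8% to 67.8%. Only Pole, the catalytic subunit of the leading-strand polymerase, was called lower in this group, and it was so in both lines. Pole had 1183, 587 and 501 counts and log2 ratios of −1.04 (−1.18 to −0.89) and −1.14 (−1.30 to −0.99). Its accessory subunit Pole2 (NCBI Gene 18974), singled out because of its values, had 283, 444 and 222 counts. Its log2 ratio was 0.62 (0.41 to 0.85) in TR1 and −0.25 (−0.51 to 0.01) in TR9. Pole2 and Pole had nearly equal FPKM in control, with a ratio of 1.03, against 3.25 in TR1 and 1.90 in TR9. Of the polymerase delta subunits, Pold2 had 480, 280 and 292 counts with log2 ratios of −0.80 and −0.62, and Pold1 and Pold3 lay between −0.93 and −0.50.

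PCNA, the clamp that holds polymerases on DNA, had the highest level of all 46 genes in every library. Pcna (NCBI Gene 18538) had 2303, 1297 and 1219 counts, an FPKM of 337, 187 and 191, and log2 ratios of −0.85 (−0.95 to −0.75) and −0.82 (−0.92 to −0.72). It was not called, since both ratios fall short of −1. Of the clamp loader, Rfc5 was called lower in both lines, with 496, 230 and 200 counts and log2 ratios of −1.13 and −1.21. Rfc2 had 857, 434 and 411 counts, at −1.01 in TR1, which was called, and −0.96 in TR9. Rfc3 had 180, 89 and 109 counts, at −1.04 (called) and −0.63. Rfc4 had 208, 108 and 75 counts, at −0.97 and −1.38 (called). The large subunit Rfc1 stood at −0.39 and −0.40.

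The single-strand DNA binding genes were not called. Rpa1, the large subunit that binds DNA, had 1551, 821 and 768 counts, with log2 ratios of −0.94 and −0.92. Rpa2 stood at −0.76 and −0.90, and Rpa3, with under 100 counts in each library, at −0.49 (−0.95 to −0.03) and −0.25 (−0.70 to 0.20). The maturation enzymes were both called lower in both lines, and their summed FPKM was 43.7% and 41.2% of control. Fen1, the flap endonuclease, had 916, 347 and 328 counts, at −1.43 (−1.60 to −1.24) and −1.39 (−1.57 to −1.20). Lig1, the ligase that seals lagging-strand fragments, had 2004, 979 and 811 counts, at −1.06 (−1.17 to −0.94) and −1.21 (−1.33 to −1.09).

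The genes of deoxynucleotide supply ranged from Tk1, the lowest of the 46 in TR1, to Tyms, the highest in TR9. Rrm1 (NCBI Gene 20133), the large subunit of ribonucleotide reductase, had the highest count of all members in control, 4058, and had 1377 in TR1 and 1361 in TR9. It was called lower in both lines, at −1.58 (−1.67 to −1.49) and −1.48 (−1.57 to −1.39). The small subunit Rrm2 had 1556, 769 and 721 counts and was called lower in both, at −1.04 and −1.01. The FPKM of Rrm1 over that of Rrm2 was 1.42 in control against 0.978 in TR1 and 1.03 in TR9.

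The enzymes that supply thymidylate differed from the others and from each other. Tk1 (NCBI Gene 21877), the salvage kinase for thymidine, had 501, 119 and 272 counts. It was called lower in TR1, at −2.10 (−2.40 to −1.80), and not in TR9, at −0.79 (−1.002 to −0.57). Tyms (NCBI Gene 22171), which makes thymidylate de novo, had 793, 700 and 917 counts and was not called, at −0.20 (−0.35 to −0.05) in TR1 and 0.31 (0.17 to 0.45) in TR9. The sign of Tyms in TR1 turned to between 0.01 and 0.05 under 3 other scalings. The FPKM of Tyms over that of Tk1 was 0.569 in control against 2.12 in TR1 and 1.21 in TR9. The ratios of gene pairs in these paragraphs were chosen after the values were seen.

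The 2 leukemia lines differed little from each other in these genes. In TR9 against TR1, 0 of the 46 were called lower, where 2.31% of 15706 tested genes were, and 1 was called higher, where 4.34% were. That gene was Tk1, at 1.31 (0.996 to 1.64). The median ratio was −0.04, beside 0.13 over all genes, with 25 genes below 0 and 21 above, and the interval held 0 in 32.

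Short of the threshold, the interval lay wholly below 0 in 9 genes, Lig1, Mcm3, Mcm5, Mcm2, Dbf4, Mcm10, Cdc45, Cdc6 and Pole2. It lay wholly above 0 in Orc5, Tyms, Pola1 and Mcm6. These sides depend on the scaling, and the number of genes wholly below 0 was 18 under TMM scaling and 5 under TPM scaling. Pole2 had the lowest ratio, at −0.88 (−1.12 to −0.65), and Cdc6 followed at −0.56 (−0.80 to −0.33). Mcm10 stood at −0.48 (−0.70 to −0.26) and Cdc45 at −0.48 (−0.65 to −0.30). Of the genes on the other side, Orc5 was at 0.53 (0.19 to 0.87), Tyms at 0.51 (0.37 to 0.65), Pola1 at 0.33 (0.09 to 0.56) and Mcm6 at 0.32 (0.23 to 0.40). The helicase subunits therefore lay on both sides, with Mcm2 at −0.27 (−0.39 to −0.16).

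**Figure D5:**
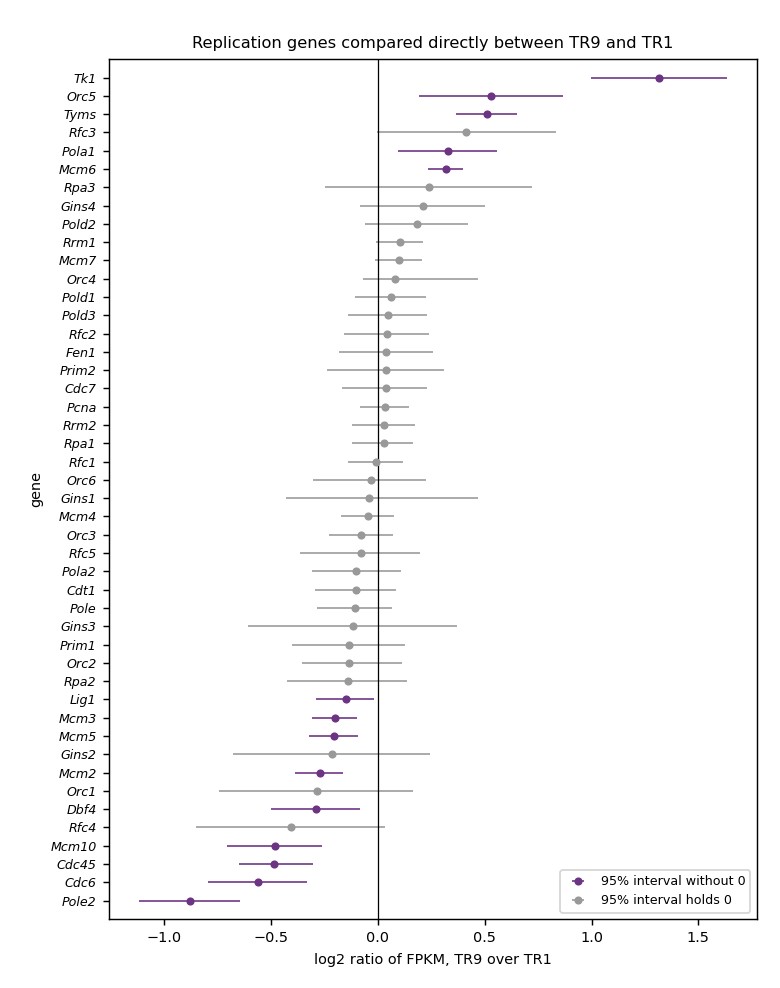
Log2 FPKM ratio of TR9 over TR1 for the 46 replication genes in order of size, with bars for 95% exact intervals of counting error, coloured purple where the interval does not hold 0. Tk1 at 1.31 stands apart at the top, and Pole2 at −0.88 has the lowest ratio.

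Genes with and without E2F letters in the promoter lay at similar levels relative to control. With a match, the medians were −0.93 for TR1 and −0.89 for TR9, against −0.84 and −0.88 for the 24 genes with a promoter but no match. Of the 15 genes with a match, 7 were called lower in TR1 and 6 in TR9, and of those without, 9 and 10. Across the 46 genes, which are not independent replicates and share the same 2 libraries in each ratio, the log2 ratio had a Pearson r of −0.24 with the log2 FPKM of control in TR1 and −0.20 in TR9. With the log2 transcript length in control, r was −0.04 and −0.14.

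Other genes of the same processes were counted from a further list of 40 replication genes, covering checkpoint and chromatin assembly factors and nucleotide enzymes. In TR1, 12 (30.0%) were called lower and 0 higher, with a median of −0.71. In TR9, 18 (45.0%) were called lower and 1 higher, with a median of −0.94. Of all genes tested, 13.0% and 10.8% were called lower and 8.09% and 9.37% higher, with medians of −0.29 and −0.12. Those called lower in both lines included Clspn, Dtl, Rnaseh2b, Chaf1b, Chtf18, Dscc1, Dut, Ssrp1 and Supt16. Ssrp1, a subunit of the histone chaperone FACT, had 3896, 1544 and 1174 counts, at −1.36 and −1.64. Dut, which removes dUTP, had 844, 338 and 241 counts, at −1.35 and −1.71. The gene called higher was Pold4, a small subunit of polymerase delta, with 75, 146 and 171 counts and log2 ratios of 0.94 (0.53 to 1.36) and 1.28 (0.89 to 1.70). Dna2, a nuclease of lagging-strand processing, was the only gene of that list called between the lines, with 574, 458 and 196 counts and a TR9 to TR1 ratio of −1.10 (−1.35 to −0.86).

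Among 23 genes of the E2F and pocket protein families with their cyclins, 6 (26.1%) were called lower in TR1 and 5 (21.7%) in TR9. Of these, 4 were lower in both, and the medians of the list were −0.54 and −0.50. Beside them, 13.0% and 10.8% of all genes tested were called lower, with medians of −0.29 and −0.12. Ccne1, a cyclin that drives entry into S phase, had 533, 65 and 44 counts, at −3.06 (−3.45 to −2.68) and −3.50 (−3.98 to −3.06). The others lower in both were Ccna2, the S phase cyclin, at −1.80 and −1.59, E2f4, a repressive E2F, at −1.61 and −1.77, and the retinoblastoma gene Rb1 at −1.45 and −1.02. E2f1, an activating member, was not called, with 364, 209 and 198 counts at −0.82 and −0.78, and Mybl2, a known E2F target, stood at 0.20 and 0.33. Ccne2, the other cyclin E gene, was not called in either line, with 431, 302 and 238 counts at −0.54 and −0.76.

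Genes of G2 and mitosis were counted to see whether the lower levels went beyond S phase. Of 15, 10 (66.7%) were called lower in each line and 9 in both, and all 15 had ratios below 0 in both. The medians were −1.26 in TR1 and −1.13 in TR9. Of all genes tested, 13.0% in TR1 and 10.8% in TR9 were called lower, with medians of −0.29 and −0.12. Mki67, a marker of dividing cells, had 14079, 5586 and 6484 counts, at −1.36 and −1.02. Bub1b, a kinase of the spindle checkpoint, had 1146, 334 and 372 counts, at −1.80 and −1.53. No test compared these lists with the 46 genes.

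Cell type markers differed between the same libraries. The 8 listed erythroid markers of 9 summed to 2023, 5.02 and 9.83 FPKM, and Alas2 was at 0 in both leukemia libraries. The 6 megakaryocyte markers summed to 912, 3.31 and 2.25 FPKM, with Pf4 at 0 in both. The 7 stem and progenitor markers summed to 216, 73.5 and 75.8 FPKM but did not move together. In TR1, Flt3 was called higher, at 16.16, 38.44 and 6.65 FPKM, and the others lower. In TR9, Kit (73.49, 29.13 and 62.55 FPKM) and Hlf were not called, and the others were called lower. The myeloid lists had higher sums in both leukemia libraries, with 5 promyelocyte markers at 4251, 21278 and 23701 FPKM and 5 neutrophil markers at 78.1, 21990 and 8671. Lymphoid markers had low sums throughout, at most 12.1 FPKM for 5 B cell genes and 1.94 for 4 T cell genes, of which 3 were listed. The B cell genes did not move together. Cd79b was called lower in both lines, with 69, 0 and 0 counts, and Vpreb1 was called higher in TR9 alone, with 1, 14 and 20. The 3 mast cell and basophil markers summed to 408, 73.3 and 84.0 FPKM. The part of these differences in the lower replication genes was not tested.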

How the data were processed

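RNA-seq was analysed in 3 libraries, 1 for each of control, TR1 and TR9, grouped by the sample labels. The authors estimated expected counts per gene with RSEM after mapping, and deposited them without normalization. The deposited FPKM were scaled by RSEM for transcript length and library total. Transcript length, in the deposited files, was used only for its correlation with the ratios. The submitters' processing notes name BWA, Bowtie and mm9, and versions are not given in the sources used here. Of 16742 NCBI Gene IDs, 16698 were matched to names in RefSeq.

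Rounded expected counts were compared by a two-sided exact Poisson test conditional on their sum (scipy 1.17.1), and p-values were adjusted by Benjamini-Hochberg over all genes listed in either library, for 3 comparisons. FPKM below 0.01 were set to 0.01 for ratios. At totals of 5488778, 5571409 and 5129662 counts, the widths of the members' intervals against control ran from 0.146 to 0.917 on the log2 scale. Some were wider in TR9 against TR1. Reads carry no molecular identifiers, so intervals cover counting error only. The members and lists were chosen with earlier results of these data known. Counts per library were given for each member called in any comparison, and for the most abundant and the furthest changed member of each role. Gins1, Gins3, Gins4, Orc3, Orc4, Pole2, Tyms, Cdc7, Mcm3, Pold1, Pold3, Prim1, Rfc1, Rpa2, Rpa3 and all genes outside the 46 were chosen after their values were seen.

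Some genes of the wider lists are not reported here. Alternatives were other scalings (TMM, median of ratios, upper quartile, TPM, totals without the 100 most abundant genes), the floor, a pseudocount, minimum levels, thresholds, whole counts only and edgeR 4.0.16 (R 4.3.3) with an assumed variation. Steps were tested on simulated data. The software was Python 3.11.15 with pandas 2.3.3, numpy 2.4.6 and matplotlib 3.10.9.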

Additional observations from a re-analysis of the deposited data

Results flagged for a closer look

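Pole2, the accessory subunit of polymerase epsilon, had a log2 ratio to control of 0.62 (0.41 to 0.85) in TR1 but −0.25 (−0.51 to 0.01) in TR9. The signs are opposite, but the TR9 interval holds 0. The libraries had 283, 444 and 222 counts in control, TR1 and TR9. Between the leukemia libraries directly, TR9 over TR1 was −0.88 (−1.12 to −0.65), short of the threshold except under TMM scaling and at 1.5-fold. That compares libraries, and the difference between the conditions was not tested.

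Tyms, thymidylate synthase, stood at −0.20 in TR1 and 0.31 in TR9 on the log2 scale, also in opposite directions. TR9 over TR1 was 0.51 (0.37 to 0.65), which was not called, and the difference between the conditions was again not tested. The TR1 sign turned under 3 other scalings, and RSEM divided the reads of Tyms with other genes.

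Tk1, thymidine kinase, was called higher in TR9 than in TR1, at a log2 ratio of 1.31. The call compares 1 library with 1 library, and edgeR's exact test with an assumed variation between libraries did not call it.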

How the results depend on the processing

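The median of the 46 genes in TR1 against control was −0.66 under TMM scaling, −0.67 by the median of ratios and −0.70 by the upper quartile. It was −1.14 under TPM scaling and −0.78 without the 100 most abundant genes. In that order, their lower calls were 8, 8, 8, 29 and 12. The shares of all genes called lower were 9.77%, 9.95%, 10.2%, 17.9% and 11.1%. In TR9 the median was −0.80 under TMM and −1.02 under TPM scaling. In TR9 against TR1 the median was −0.17, −0.16 and −0.14 under TMM, median-of-ratios and upper-quartile scaling, and turned to 0.079 under TPM scaling. TMM scaling added 1 lower call there (Pole2). A threshold of 1.5-fold gave 35 lower calls and 1 higher (Pole2) in TR1, 34 lower in TR9 and 1 lower in TR9 against TR1. A log2 ratio of at least 2 left 1 lower call in TR1, 0 in TR9 and 0 higher in TR9 against TR1. Shares over all genes were not counted at either threshold, so these counts cannot be set against genes at large. With the variation between libraries assumed as a coefficient of 0.2, edgeR's exact test called 2 lower in TR1, 2 in TR9 and 0 higher in TR9 against TR1, and at an unadjusted p under 0.05 it found 25 lower in TR1, 28 lower in TR9, and 1 lower and 1 higher in TR9 against TR1. Over all genes, that test put 1649 of 16282, 1547 of 16303 and 282 of 15706 at a false discovery rate of at most 0.001, in either direction. Its unadjusted p was under 0.05 for 4600, 4413 and 1663 genes.

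A pseudocount of 1 FPKM left 17 lower calls in TR1, without Rfc2, Rfc3 and Pole, and changed no other count of calls among the members. The share over all genes was not counted with it. The floor of 0.001 FPKM, minima of 1 FPKM or 10 counts and a false discovery rate of 0.05 changed no count of calls among the members. With the 42 genes of whole counts alone, 18 were called lower in each line. No paired analysis was possible because each condition has 1 library, and for the same reason no replicate could be left out. Depth limited the scarcest genes most.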
